A study of Homo sapiens with 6 samples.

Results

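The proteasome genes described here are 47 protein-coding genes, found by matching their symbols to the Ensembl identifiers of the deposited count table, which has 64252 rows. They were sorted by their place in the particle. The sets are 7 alpha-ring and 7 beta-ring genes of the 20S core, 3 immunoproteasome catalytic genes, 6 ATPases and 12 other subunits of the 19S cap, 2 chaperones of the 19S base, 4 activators, the inhibitor PSMF1 and 5 chaperones of the 20S core. All 47 were counted in every library and passed the filter on low counts.

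RNA was measured by bulk sequencing in SK-N-BE(2), a human neuroblastoma cell line with amplified MYCN. Cells carried a control short hairpin RNA (shControl, also labelled shNC) or 1 of 2 hairpins against BCAT1 (shBCAT1#1 and shBCAT1#2, here hairpin 1 and hairpin 2), with 2 libraries per group. BCAT1 is the cytosolic enzyme that removes the amino group of leucine, isoleucine and valine. No dose, time after transfection or clone is given, and nothing says that the 2 libraries of a group came from separate cultures, so a p-value reflects the spread between these libraries alone, which may be technical. In such bulk RNA, fewer cells of a type and less RNA per cell cannot be told apart.

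The 26S proteasome is the protease that degrades proteins tagged with ubiquitin. Its barrel, the 20S core, stacks outer alpha rings, which guard the entrance, on inner beta rings, which hold the proteolytic sites, and the 19S cap binds, unfolds and feeds in the substrate. Cells exposed to interferon exchange the catalytic beta subunits for those of the immunoproteasome and make more of the PSME1 and PSME2 activator ring, while loss of proteasome activity raises the constitutive genes through the transcription factor NFE2L1.

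Total counts ranged from 32333416 to 39321388 per library, and every statement below uses counts normalised to library size (CPM) after TMM scaling. BCAT1 itself read 459 and 475 CPM with the control hairpin, 55.8 and 55.3 with hairpin 1, and 116 and 111 with hairpin 2, so both hairpins lowered their target and hairpin 1 lowered it further. Of the marker lists, all 8 adrenergic neuroblastoma genes were measured, PHOX2A at 310 CPM or more and HAND2 at 325 or more in each library. Their summed level was 1541 and 1518 CPM in controls, 1254 and 1331 with hairpin 1, and 1090 and 1091 with hairpin 2. All 5 mesenchymal genes were also measured, mostly VIM, summing to 4311 to 6220 CPM. So were all 5 fibroblast genes, with COL1A1 at 155 to 245 CPM and LUM at 135.5 to 213, and their sum was 527 and 511 CPM in controls, 358 and 345 with hairpin 1, and 498.5 and 501.5 with hairpin 2. The 4 epithelial markers summed to 9.6 and 11.6 CPM in controls, 11.9 and 13.3 with hairpin 1, and 19.7 and 20.1 with hairpin 2. These sums differed between groups, and their part in the results was not tested. Of the leukocyte markers, CD3E was at 0 in every library, LYZ and HLA-DRA did not exceed 0.103 CPM, and PTPRC did not exceed 0.768, while CD14 reached 4.84 and CD68 37.3.

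In control cells the core genes stood highest when levels were divided by transcript length. The median was 260.6 CPM per kb over the beta ring and 150.3 over the alpha ring, against 102.7 over the 19S non-ATPase subunits and 72 over the 19S ATPases. PSMA7 was the highest gene at 439 CPM per kb. The assembly chaperones lay lower, with medians of 27.3 CPM per kb for the 20S set and 30.2 for the 19S set. The immunoproteasome genes were the lowest set, at 16.4 for PSMB10, 6 for PSMB9 and 2.8 for PSMB8, while the constitutive subunits they replace, PSMB7, PSMB6 and PSMB5, stood at 299, 147 and 261 CPM per kb. Levels per kb use 1 representative transcript per gene and depend on that choice.

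**Figure D1:**
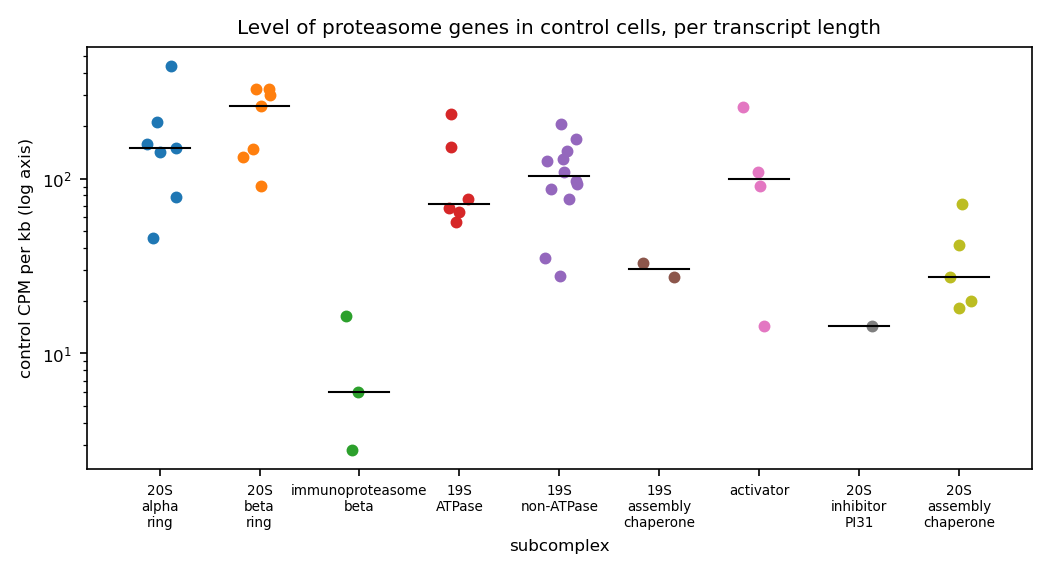
Control-cell level of each proteasome gene (points, mean of 2 libraries) in CPM per kb of transcript on a log axis, by subcomplex, with the median as a line. The beta ring median is 260.6 CPM per kb and the 3 immunoproteasome genes lie between 2.8 and 16.4.

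The first question was what BCAT1 knockdown, taken as the mean of both hairpins, did to these genes. Most fell, and most falls were small. Of the 47, 33 were lower and 2 were higher (edgeR quasi-likelihood test, adjusted p under 0.05 over all 18734 genes tested), where 26.4% of all genes tested were lower and 23.6% were higher. The median log2 fold change was −0.27 over the members and −0.01 over all genes tested. Summed over the members, libraries read 8718 and 8637 CPM with the control hairpin, 7394 and 7653 with hairpin 1, and 7171 and 7170.5 with hairpin 2. All 4 knockdown libraries therefore lay below both control libraries. Gene by gene, 31 of the 47 had all 4 knockdown libraries below both controls, against 23.6% of all genes tested, and ADRM1 and PSME4 had all 4 above, against 22%.

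The number of falls changed with a correction for transcript length. The members are short, with a median transcript length of 1546 bases against 3173 for the 13907 protein-coding genes tested, and their median GC content was 50.7% against 49.6%. After a correction of each library for GC content and transcript length, 22 members were lower (27.7% of genes) and 4 were higher (24% of genes), with a median of −0.10. Of the 35 calls as counted, 18 passed again in the same direction and 3 passed in the opposite one. The same genes without the correction gave 33 lower (31.8% of genes) and 2 higher (28.8% of genes), with a median of −0.28. Correction for GC content alone gave 37 lower (30.3% of genes) and 2 higher (27.2% of genes), with a median of −0.25. GC content with merged exon length gave 26 lower (28.5% of genes) and 2 higher (24.7% of genes), with a median of −0.15. Why the change varied with length was not tested, so corrected values are given below beside those as counted, for sets or for single genes.

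**Figure D2:**
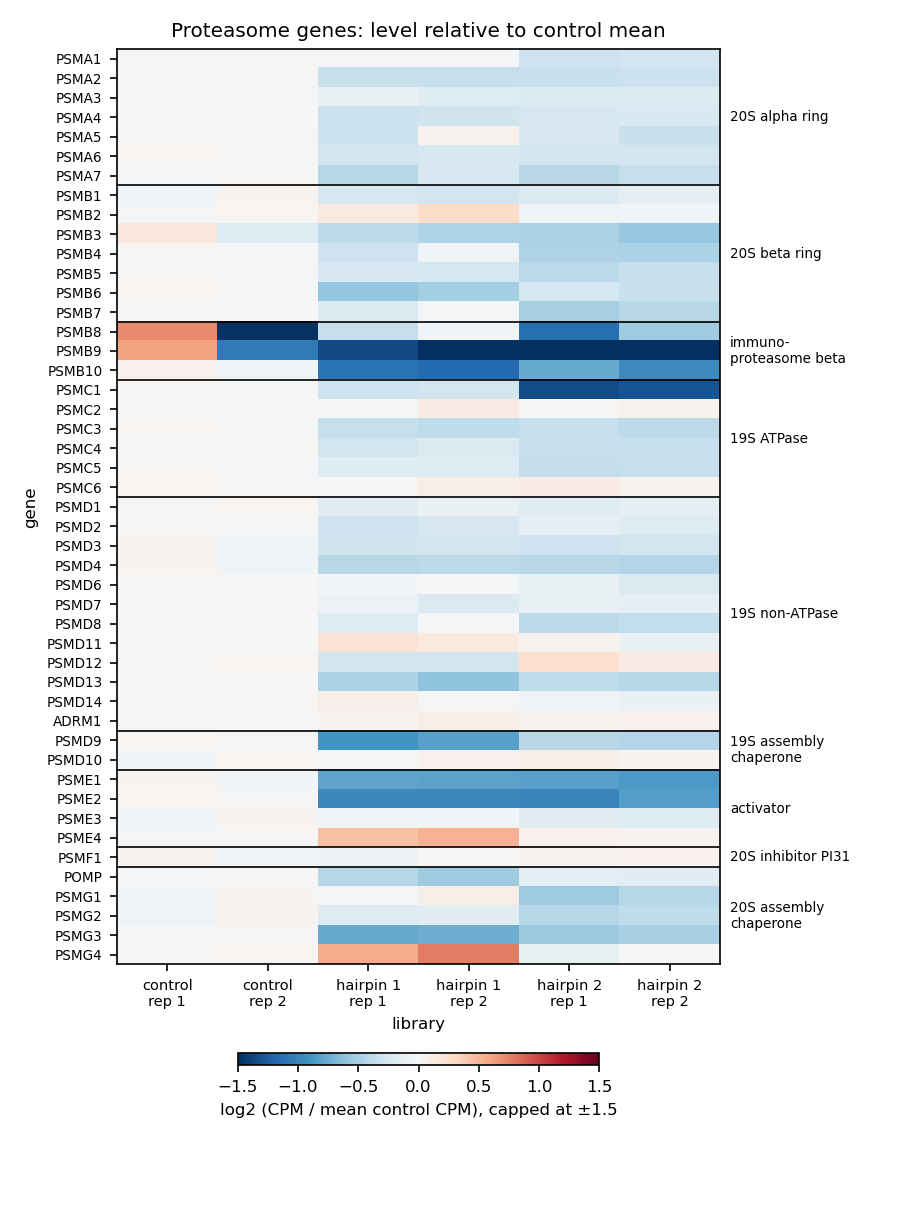
Level of each of the 47 genes (rows, by subcomplex) in each of the 6 libraries (columns) as log2 of CPM over the mean control CPM, not corrected for length, with colours capped at 1.5. Blue fills most of the 4 knockdown columns. The deepest blue is in PSMB9, PSMB10, PSME1, PSME2, PSMD9 with hairpin 1 and PSMC1 with hairpin 2. PSMB8 scatters, with 1 control library among its lowest values.

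The alpha ring, whose subunits form the gated entrance, fell almost as a set. PSMA1, PSMA2, PSMA3, PSMA4, PSMA6 and PSMA7 were lower, 6 of 7, against 26.4% of all genes tested. Their log2 fold changes ran from −0.16 to −0.35. PSMA7 read 435 and 438 CPM in the control libraries, 324 and 370 with hairpin 1, and 328 and 345 with hairpin 2. Every knockdown library of PSMA7 lay below the controls, and the fall was −0.35 ± 0.05 on the log2 scale (SE, adjusted p = 0.00063). PSMA5 had values of 168 and 172 in controls and 136, 176, 145 and 135 with the hairpins, so 1 hairpin 1 library reached the controls (log2 −0.20, adjusted p = 0.095). The ring as a sum lost 15.4% with hairpin 1, from 1759 to 1487 CPM on average, and 18.5% with hairpin 2, to 1434. With the length correction the count was again 6 of 7 lower (27.7% of genes), with a median of −0.15, but the genes differed. PSMA7 moved to 0.01 (adjusted p = 0.83) and PSMA5 to −0.54, and PSMA4, the largest fall of the ring then, to −0.55.

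The beta ring carries the constitutive proteolytic sites in PSMB5 (chymotrypsin-like), PSMB6 (caspase-like) and PSMB7 (trypsin-like). It too was lower in 6 of 7 genes, all but PSMB2, against 26.4% of all genes tested. PSMB5 stood at 341 and 334 CPM with the control hairpin, 287 and 281 with hairpin 1, and 255 and 266 with hairpin 2. PSMB6 went from 128 and 123 to 83.7 and 87.9 with hairpin 1 and to 105 and 99.7 with hairpin 2. PSMB7 went from 295 and 290.5 to 252 and 287 with hairpin 1 and to 207 and 219 with hairpin 2. These 3 catalytic genes had all 4 knockdown libraries below both controls, as did 23.6% of all genes tested. Their log2 falls over both hairpins were −0.31 ± 0.03, −0.42 ± 0.04 and −0.29 ± 0.05 (SE, adjusted p = 0.00012, 5e-05 and 0.0018). With hairpin 1 alone, PSMB7 did not pass the test (log2 −0.12, adjusted p = 0.14). PSMB3, a structural subunit, had the largest fall of the ring at −0.47 ± 0.09 (adjusted p = 0.002), from 115 and 89.4 CPM to 77.7, 74.4, 73.7 and 69.2, although its control libraries differed from each other by more than the knockdown libraries did. PSMB1 and PSMB4 were lower by −0.22 and −0.32. PSMB2, at 241 and 251 CPM in controls, rose to 270 and 297 with hairpin 1 (log2 0.20, adjusted p = 0.011) and read 236 and 238.5 with hairpin 2. That rise was lost without control replicate 1 and without hairpin 1 replicate 2, with log2 values of 0.13 to 0.27 over 20 other settings. Over both hairpins, no beta-ring gene kept its call under the correction for GC content and length, where the 7 genes lay between −0.06 and 0.03 with a median of 0.01. With single hairpins some calls stood after the correction. With hairpin 1, PSMB2 was higher (0.16), PSMB7 higher (0.15) and PSMB6 lower (−0.15), and with hairpin 2, PSMB6 was higher (0.18) and PSMB7 lower (−0.17).

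As counted, interferon-inducible genes were among the deepest falls of the family, with PSMC1 of the 19S cap close to them at −0.80. PSME1 and PSME2 encode the 2 subunits of the PA28 ring that caps the 20S core and opens it to peptides, and they lie close together on chromosome 14 (hg38, 24136158 to 24138967 and 24143362 to 24147570). PSME1 read 93.4 and 88.6 CPM with the control hairpin, 52.5 and 52.0 with hairpin 1, and 51.7 and 50.0 with hairpin 2. PSME2 read 157 and 150.1 CPM with the control hairpin, then 78.7 and 78.7, and 77.1 and 86.7. Both genes were near the same level in all 4 knockdown libraries, far below the controls. The log2 fold changes were −0.82 ± 0.04 for PSME1 and −0.94 ± 0.05 for PSME2 (SE, adjusted p = 3e-06 and 3.3e-06), and no difference between the hairpins passed the test (log2 −0.04, adjusted p = 0.56, and 0.06, adjusted p = 0.46).

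PSMB10, the immunoproteasome counterpart of PSMB7, fell by a like amount. Its libraries read 20.9 and 19.1 CPM in controls, 9.28 and 8.91 with hairpin 1, and 11.8 and 10.3 with hairpin 2. No knockdown library overlapped the controls, and the log2 fold change was −0.99 ± 0.09 (SE, adjusted p = 3.3e-05). PSMB10 shares 34.8% of its exon length with the gene AC040162.1 on the same strand, so reads there could belong to either. PSMB9, the counterpart of PSMB6, was sparse, with 270 and 83 counts in controls, 71 and 18 with hairpin 1, and 1 and 58 with hairpin 2. Its replicates disagreed several-fold. The log2 fold change of PSMB9 was −2.29 ± 0.78 (adjusted p = 0.038), but the call was lost in 8 of 19 other settings. Among these were DESeq2 (adjusted p = 0.22), no low-count filter (adjusted p = 0.088), the fit without control replicate 1 (log2 −1.23, adjusted p = 0.37) and the fit without hairpin 1 replicate 2 (log2 −1.99, adjusted p = 0.086). PSMB8, the counterpart of PSMB5, did not pass the test, at 5.16 and 1.13 CPM in controls, 2.48 and 3.05 with hairpin 1, and 1.44 and 2.18 with hairpin 2. Its direction rested on 1 control library: without control replicate 1, PSMB8 was higher, at 0.97 over both hairpins (adjusted p = 0.043), and without control replicate 2 it was lower, at −1.21 (adjusted p = 0.0044). PSMB8 and PSMB9 are neighbours on chromosome 6 whose exons overlap each other and PSMB8-AS1, and whether the counting used strand is not given in the sources used here.

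PSME1, PSME2 and PSMB10 kept their falls under the correction for GC content and length, at −0.48, −0.54 and −0.52, each smaller than as counted. PSMC1, at −0.89, was then lower than these 3, and PSMA4, PSMD9 and PSMA5, at −0.55, −0.55 and −0.54, lay beside them. Of the 3 immunoproteasome genes only PSMB10 was then lower (27.7% of genes), so PSMB9 lost its call and PSMB8 was not called. As counted, PSME1, PSME2, PSMB10 and PSMC1 were also the 4 members whose change exceeded 1.5-fold by a test against that fold, which 5.55% of all genes passed. The summed leukocyte markers were 42.6 and 37.9 CPM in controls, 31.9 and 37.3 with hairpin 1, and 20.2 and 17.1 with hairpin 2, and consisted mostly of CD68. CD14 read 4.84 and 3.4 CPM in controls and 2.33 to 3.57 with the hairpins (log2 −0.55, adjusted p = 0.039). CD3E, LYZ, HLA-DRA and PTPRC did not exceed 0.768 CPM. The part of such markers in these falls was not tested.

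**Figure D3:**
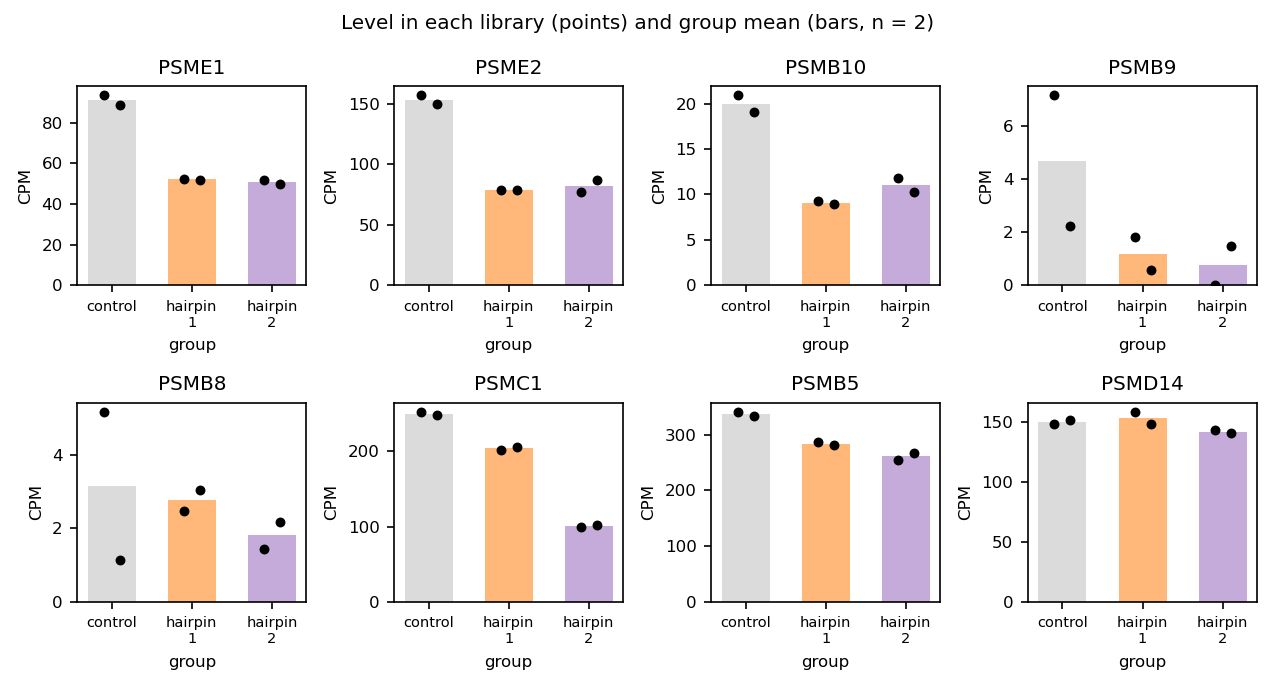
CPM in each library (points) and group mean (bars, n = 2) for 8 genes, on linear axes from 0. PSME1, PSME2 and PSMB10 drop with both hairpins, PSMB9 and PSMB8 scatter between replicates, PSMC1 drops mainly with hairpin 2, from 250.4 CPM on average to 101, PSMB5 drops slightly and PSMD14 stays within a narrow range.

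Because PSME1, PSME2 and PSMB10 moved together, their promoters are shown. RefSeq promoter windows (build GRCh38.p14, 250 bases before to 50 after a start) were matched for 41 of the 47 genes. A motif made of a pair of GAAA words 2 bases apart, the spacing of an interferon-stimulated response element, was chosen after the values were seen and was searched on both strands. It occurred in the windows of 7 of the 41 genes (17.1%) and of 4.38% of all 27305 genes with a window. The 7 were PSMA4, PSMB4, PSMB8, PSMB10, PSME1, PSME2 and PSMG4. The matches in the immunoproteasome and activator genes and in PSMG4, which rose with hairpin 1, follow, read along the gene's strand with the motif in capitals. In PSMB8 and PSME1 the motif is on the opposite strand, so the capitals show its reverse complement.
PSMB10, chr16:67936852-67936881, minus strand: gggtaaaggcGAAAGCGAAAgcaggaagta
PSME2, chr14:24146619-24146648, minus strand: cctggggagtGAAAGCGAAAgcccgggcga
PSME1, chr14:24136189-24136218, plus strand: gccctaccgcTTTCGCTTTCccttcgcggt
PSMB8, chr6:32844032-32844061, minus strand: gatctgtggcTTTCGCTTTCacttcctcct
PSMG4, chr6:3258904-3258933, plus strand: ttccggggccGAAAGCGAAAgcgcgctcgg
These 5 matches lay within 33 bases of the annotated start, while those in PSMA4 and PSMB4 lay 240 and 68 bases before it. A match is a description of these letters and no evidence that a factor bound there. Over both hairpins as counted, PSMA4, PSMB4, PSMB10, PSME1 and PSME2 were lower, PSMG4 was higher and PSMB8 was not called.

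Among the 6 ATPases that form the unfolding ring of the 19S cap, PSMC1, PSMC3, PSMC4 and PSMC5 fell and PSMC2 and PSMC6 did not pass the test (log2 0.04 and 0.07, adjusted p = 0.52 and 0.21). PSMC1, whose tail helps to open the 20S gate, had the largest fall of the set. It read 253 and 248 CPM in controls, 202 and 206 with hairpin 1, and 99.0 and 102 with hairpin 2. The hairpin 1 libraries lay below the controls, and the hairpin 2 libraries lay far below the hairpin 1 libraries. Its log2 fold change was −0.30 ± 0.04 with hairpin 1 and −1.31 ± 0.04 with hairpin 2 (SE, adjusted p = 0.00035 and 7.2e-07), and the hairpins differed by −1.02 ± 0.04 (adjusted p = 5.3e-07). That was the largest difference between hairpins in the family, and it was −1.01 after correction for GC content and length. PSMC3, PSMC4 and PSMC5 fell by 0.36, 0.30 and 0.27, and lay at −0.02, 0.02 and −0.03 after the correction. The set of 6 then held 3 lower and 0 higher genes (27.7% and 24% of genes), with a median of −0.10.

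PSMC1 lies on chromosome 14 (hg38, 90256495 to 90275429, plus strand) opposite NRDE2, whose exons cover 75.8% of its merged exon length, so without strand the reads of the 2 genes cannot be separated there. NRDE2 counted 22.3 and 21.9 CPM in controls, 20.6 and 17.4 with hairpin 1, and 27.3 and 28.0 with hairpin 2. It was thus higher with hairpin 2 than with hairpin 1 (log2 0.54, adjusted p = 0.0015), the opposite direction to PSMC1. PSMC1 also has 13 named pseudogenes in the table, which together held 1106 counts over the 6 libraries against 41235 for PSMC1.

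The 12 other subunits of the cap form the base scaffold, the lid and the ubiquitin receptors. Of these, 7 fell, against 26.4% of all genes tested: PSMD1, PSMD2, PSMD3, PSMD4, PSMD7, PSMD8 and PSMD13. The median over the 12 was −0.14 as counted and −0.05 after the correction. PSMD13, a lid subunit, had the largest fall, from 218 and 215.5 CPM to 156 and 143 with hairpin 1 and to 166 and 161 with hairpin 2 (log2 −0.47 ± 0.04 SE, adjusted p = 3.4e-05), with no overlap between groups. PSMD4, a ubiquitin receptor, fell by 0.42 and PSMD2, a scaffold that docks shuttle proteins, by 0.22. ADRM1, the other dedicated receptor, read 202 and 195 CPM in controls and 205 to 213 in the knockdown libraries, all above the controls, without passing the test (log2 0.07, adjusted p = 0.16).

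PSMD14, the deubiquitinase that strips the ubiquitin chain from the substrate, did not pass the test, at 148 and 151 CPM with the control hairpin, 158 and 148 with hairpin 1, and 143 and 140.3 with hairpin 2 (log2 −0.02, adjusted p = 0.64). The groups overlapped. PSMD6, PSMD11 and PSMD12 also did not pass over both hairpins, at −0.10, 0.08 and −0.05. After the correction PSMD13 stayed lower at −0.26, PSMD4 and PSMD2 at −0.11 and −0.10, PSMD12 became lower at −0.42, PSMD8 turned to 0.12 and ADRM1 rose to 0.54. The set then held 5 lower and 2 higher genes (27.7% and 24% of genes).

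The chaperones that build the particle included some of the larger falls. PSMD9, which escorts a pair of ATPases into the 19S base, read 78.0 and 74.7 CPM in controls, 40.9 and 43.3 with hairpin 1, and 57.1 and 56.3 with hairpin 2 (log2 −0.65 ± 0.04 SE, adjusted p = 1e-05). Its 3 groups did not overlap, with hairpin 1 lowest and control highest. PSMD10, the chaperone also called gankyrin, lay at 49.9 and 52.4 CPM in controls and between 50.3 and 54.4 in the other libraries (log2 0.04, adjusted p = 0.49).

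Of the 20S chaperones, 4 of 5 fell, against 26.4% of all genes tested. POMP, which is needed for the barrel to close and is degraded by the finished core, read 93.6 and 95.8 CPM in controls, 70.2 and 65.5 with hairpin 1, and 85.7 and 84.7 with hairpin 2 (log2 −0.32 ± 0.04 SE, adjusted p = 0.00025). Its groups did not overlap either, although the call of hairpin 2 against control alone (log2 −0.15) was lost without control replicate 2 (adjusted p = 0.11) and without either hairpin 2 library (adjusted p = 0.084 and 0.13). PSMG3 and PSMG4 act as a pair in alpha-ring assembly, and they moved apart. PSMG3 went from 57.5 and 58.5 CPM to 34.4 and 35.0 with hairpin 1 and to 39.7 and 41.5 with hairpin 2 (log2 −0.63, adjusted p = 1.4e-05). PSMG4 went from 15 and 15.7 CPM to 22.5 and 26.1 with hairpin 1 and to 14.2 and 15.3 with hairpin 2. Only hairpin 1 raised PSMG4 past the test (log2 0.66 ± 0.10, adjusted p = 0.00066, against −0.06 with hairpin 2), and the hairpins differed by −0.72 ± 0.10 (adjusted p = 0.00045). Over both hairpins PSMG4 was at 0.30 (adjusted p = 0.02), a call lost without control replicate 1 or 2 or hairpin 2 replicate 2 (adjusted p = 0.12, 0.056 and 0.055). Exons of SLC22A23 and TUBB2B overlap 15% of its exon length on the opposite strand.

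PSMG1 and PSMG2, the other alpha-ring chaperone pair, fell with hairpin 2, by 0.48 and 0.41. PSMG1 read 57.3 and 60.4 CPM in controls, 57.5 and 62.6 with hairpin 1, and 40.6 and 43.7 with hairpin 2. Over both hairpins the call of PSMG1 (log2 −0.23) was lost without control replicate 2 (log2 −0.19, adjusted p = 0.062). Its hairpin 1 libraries overlapped the controls and its hairpin 2 libraries lay below both groups. After correction for GC content and length, PSMD9 stood at −0.55, POMP at −0.44, PSMG3 at −0.21, PSMG1 at −0.21 and PSMG4 at 0.72, all called. PSMG2 lost its call (log2 −0.07, adjusted p = 0.34), and PSMG4 was then higher with hairpin 2 as well (log2 0.40).

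The remaining regulators split. PSME3, the nuclear PA28 form, fell slightly (log2 −0.12, adjusted p = 0.027), from 247 and 262 CPM to 242.5 and 248 with hairpin 1 and to 226 and 223 with hairpin 2, and was 0.18 and higher after the correction. PSME4, the large PA200 activator, rose with hairpin 1, from 100.3 and 104 CPM to 138.5 and 147 (log2 0.48 ± 0.04, adjusted p = 3.8e-05), and read 106 and 106 with hairpin 2 (log2 0.06, adjusted p = 0.31). PSME4 has a long transcript, 7099 bases, and its value over both hairpins turned from 0.27 to −0.14 (adjusted p = 0.008) with the correction. PSMF1, an inhibitor of the 20S core, was between 58.7 and 64.8 CPM in all 6 libraries (log2 0.01, adjusted p = 0.88). After the correction PSMF1 was −0.10 over both hairpins, not called, and −0.15 with hairpin 1, called lower.

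**Figure D4:**
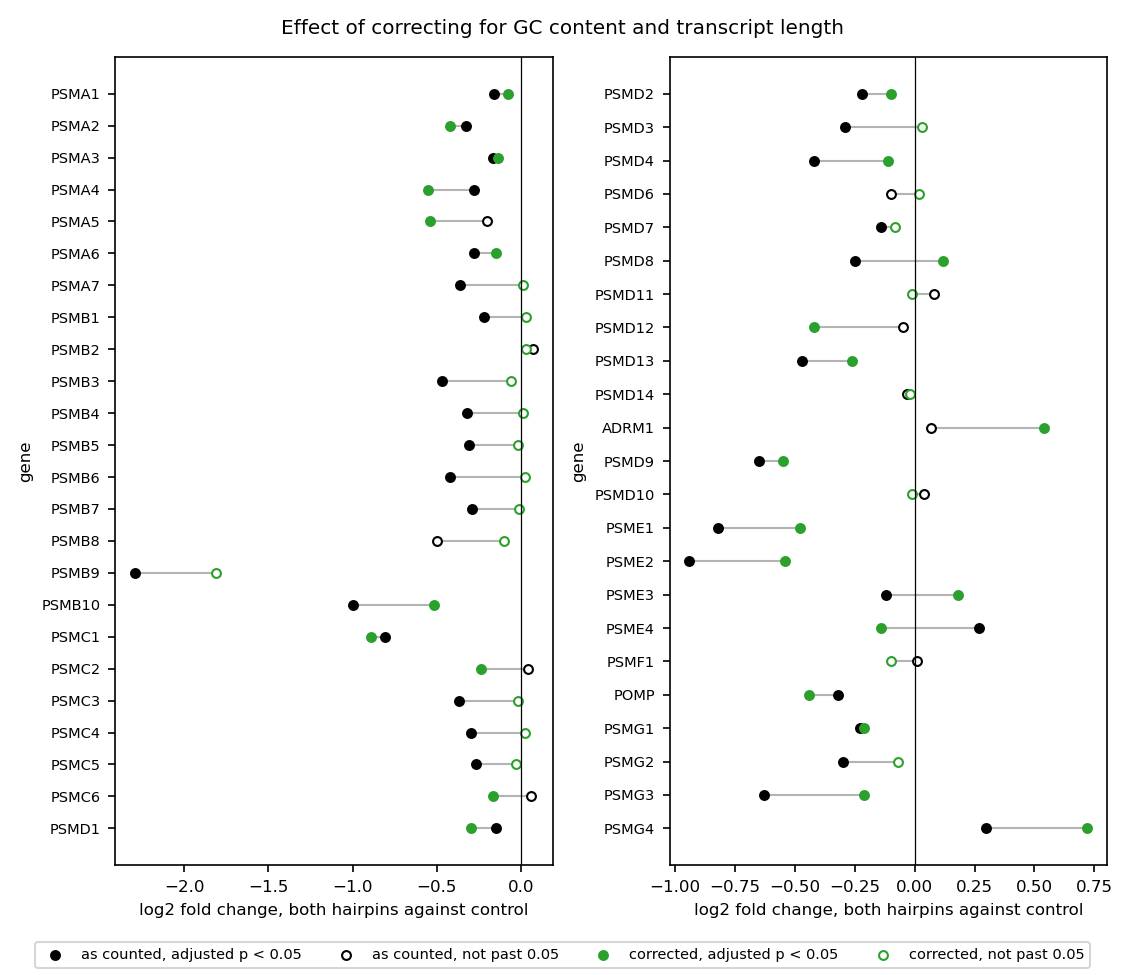
Log2 fold change of each gene over both hairpins against control, as counted in the 13907 protein-coding genes (black) and after correction for GC content and transcript length (green). Filled points passed adjusted p under 0.05. The beta ring moves to between −0.06 and 0.03, while PSME1, PSME2, PSMB10, PSMC1 and PSMD9 lie at −0.48 or below in both fits.

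Set singly against control, the hairpins share the control libraries, so the values of each stand side by side here and are not independent. Hairpin 1 gave 26 lower (24.9% of genes) and 4 higher members (24.2% of genes), and hairpin 2 gave 32 lower (25.4% of genes) and 1 higher (23.9% of genes). The 4 higher with hairpin 1 were PSMB2, PSMD11, PSME4 and PSMG4, and the 1 higher with hairpin 2 was PSMD12. In 24 genes the fall passed with each hairpin (13.9% of genes), and no gene rose with each (13% of genes). Median log2 fold changes were −0.19 and −0.29. With the correction for GC content and length, hairpin 1 gave 19 lower (27.8% of genes) and 7 higher (28.4% of genes), and hairpin 2 gave 20 lower (27.2% of genes) and 4 higher (24.7% of genes).

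Compared directly, hairpin 2 was lower than hairpin 1 in 14 members (23.3% of genes) and higher in 5 (22.9% of genes). In all 19 of the 47 differed, against 46.2% of all genes tested. With the correction 17 were lower (30.5% of genes) and 10 higher (29.4% of genes). The lower genes as counted, without the correction, included PSMC1, PSMG4, PSMG1, PSME4, PSMB7, PSMB4, PSMA1 and PSMD8. The 5 higher as counted were PSMD12, PSMD9, POMP, PSMB6 and PSMG3. As counted, PSMD12, a lid subunit, was the only member to pass the test in opposite directions, which 5.73% of all genes did. It read 152 and 157 CPM in controls, 128 and 127 with hairpin 1, and 183 and 169 with hairpin 2. The 3 groups did not overlap, with log2 fold changes of −0.28 and 0.19 (adjusted p = 0.0017 and 0.013). The rise with hairpin 2 was lost without control replicate 1 (log2 0.16, adjusted p = 0.076) and without hairpin 2 replicate 1 (log2 0.12, adjusted p = 0.15). The difference between the hairpins was 0.46 ± 0.05 (SE, adjusted p = 0.0001). After correction for GC content and length the difference was 0.33, but the hairpin 2 value against control turned to −0.25. All 5 of the 20S chaperones differed between the hairpins, PSMG1, PSMG2 and PSMG4 lower and POMP and PSMG3 higher with hairpin 2.

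**Figure D5:**
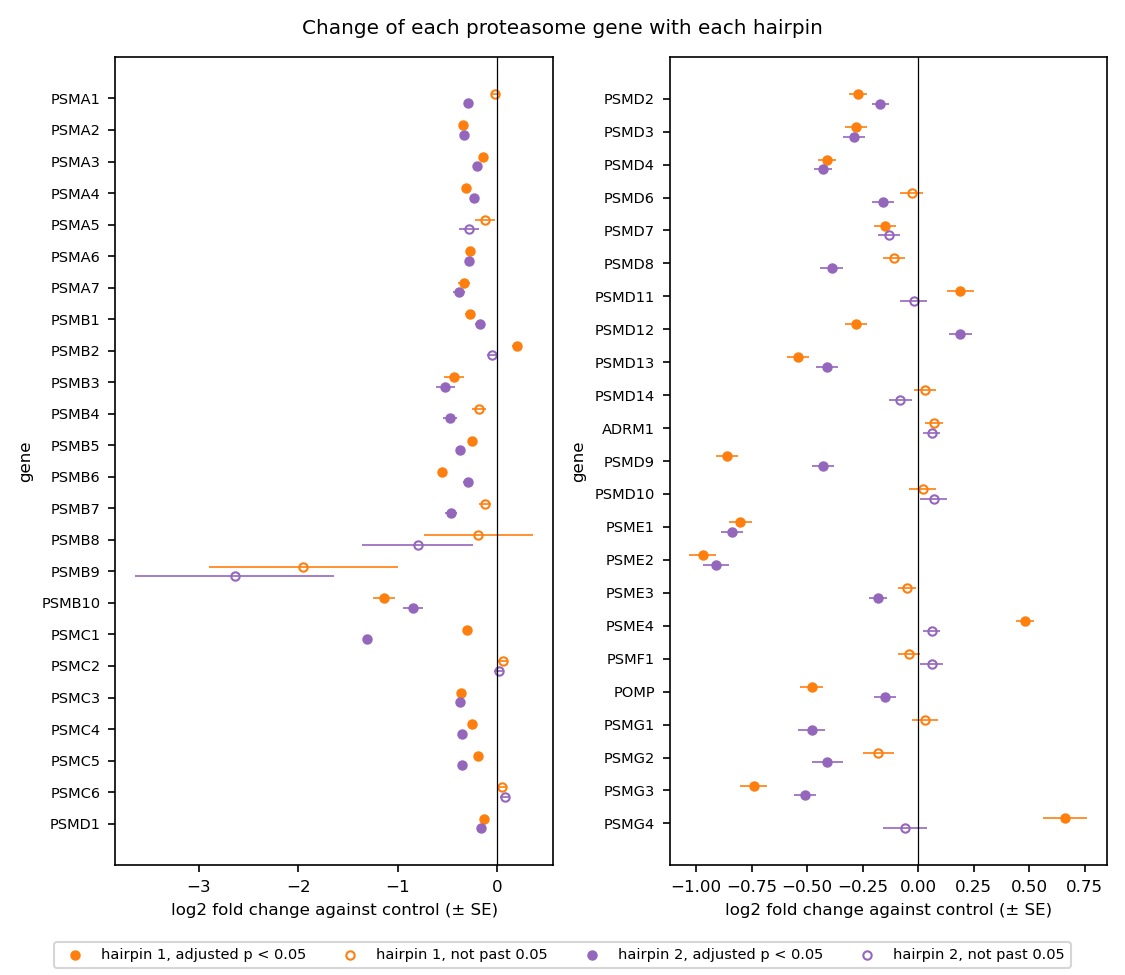
Log2 fold change against control (± SE) of each gene with hairpin 1 (orange) and hairpin 2 (purple), where filled points passed adjusted p under 0.05 and the 2 panels have different scales. PSME1 and PSME2 coincide near −0.8 to −1.0, PSMC1 falls further with hairpin 2 and PSMD12 lies on both sides of 0.

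Genes that supply or steer the proteasome did not all move with it. Of 44 further genes in 8 lists, 42 were tested, and 18 were lower and 12 higher over both hairpins (26.4% and 23.6% of all genes tested). The ubiquitin genes UBB and RPS27A were lower, at −0.45 and −0.43. Also lower were VCP, the unfoldase that delivers substrates, and 4 of its 5 cofactors, by 0.15 to 0.25. The ligase UBE3C, which rides on the proteasome, rose by 0.48, and the shuttle receptors UBQLN1 and UBQLN2 rose by 0.38 and 0.28. SEM1, a small 19S subunit outside the list of 47, fell by 0.40. The correction gave 22 lower and 11 higher of the 42 (27.7% and 24% of genes), with UBB at −0.17, UBE3C at 0.32 and UBQLN2 at 0.08, no longer called.

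NFE2L1, the factor that drives proteasome genes when activity runs short, read 510 and 511 CPM in controls, 402 and 400.2 with hairpin 1, and 286 and 277 with hairpin 2. It fell with each hairpin, by 0.35 and 0.86, and the hairpins differed (log2 −0.51). The values after correction were −0.32, −0.76 and −0.44. DDI2, the protease that activates it, rose with hairpin 2, from 38.2 and 40.4 CPM to 85.3 and 81.2 (log2 1.08), and read 46.0 and 40.2 with hairpin 1 (log2 0.13, adjusted p = 0.16). After the correction DDI2 was 0.59 with hairpin 2 and lower, at −0.28 (adjusted p = 0.0038), with hairpin 1. NGLY1, which removes its sugars, was at 0.34 over both hairpins. MYCN, the amplified oncogene, fell from 2251 and 2271 CPM to 1821 and 1828 with hairpin 1 and to 1702 and 1816 with hairpin 2 (log2 −0.34, adjusted p = 9.5e-05), and to −0.10 after the correction.

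Among inducers of the immunoproteasome, IRF1 fell with hairpin 2 (log2 −0.61) and was at 0.14, not called, with hairpin 1. NLRC5 did not pass the test with either hairpin (log2 0.26 and −0.22). TAP2, a peptide transporter of the antigen route, fell over both hairpins by 0.56 (adjusted p = 0.01), but did not pass with hairpin 1 alone (log2 −0.33, adjusted p = 0.14) or over both after the correction (log2 −0.34, adjusted p = 0.059). Its partner TAP1, at 2.19 to 4.49 CPM, did not pass (log2 −0.24, adjusted p = 0.53). In the same list ERAP1 was higher over both hairpins (log2 0.19, adjusted p = 0.021) and lower after the correction (log2 −0.20, adjusted p = 0.008). TAPBP was not called over both hairpins (log2 −0.12, adjusted p = 0.25) and was higher after the correction (log2 0.23, adjusted p = 0.024).

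Promoter letters linked to NFE2L1 were searched in the 250 bases before the start, on both strands. TGACNNNGC, an antioxidant-type element, occurred in 13 of 41 members (31.7%) and in 13.2% of all genes with a window. CACGTG, an E-box that MYC proteins can bind, occurred in 3 (7.32%, against 7.73%), CCAAT in 19 (46.3%, against 37%) and GGCGGGA in 12 (29.3%, against 16%). Examples of the antioxidant-type match are shown for PSME1 and PSME2, the paired falls, PSMD12, which moved oppositely with the hairpins, and PSME4, which rose with hairpin 1, with the motif or its reverse complement in capitals.
PSME1, chr14:24136098-24136127, plus strand: atggcagggcTGACCCCGCctcctccatcc
PSME2, chr14:24146766-24146795, minus strand: ccctggactgTGACCCAGCcagcaccgcct
PSMD12, chr17:67366723-67366752, minus strand: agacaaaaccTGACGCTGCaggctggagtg
PSME4, chr2:53971008-53971037, minus strand: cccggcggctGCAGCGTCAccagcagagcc
These examples were picked for their directions, so they do not describe the 13 genes as a set. After correction for GC content and length, PSMD12 was −0.25 with hairpin 2 and PSME4 was −0.14 over both hairpins. The match says nothing of binding in these cells.

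The 18 members with no exon overlap and no named pseudogene had 13 lower and 0 higher genes over both hairpins as counted (26.4% and 23.6% of all genes tested), with a median of −0.25. After the correction they had 9 lower and 0 higher (27.7% and 24% of genes), with a median of −0.06. Across 19 settings of the fit, 14 of the 35 calls over both hairpins held in every setting other than the test against 1.5-fold. They were POMP, PSMA2, PSMA3, PSMA4, PSMA6, PSMB10, PSMC1, PSMD2, PSMD4, PSMD9, PSMD13, PSME1, PSME2 and PSMG3. All 14 were falls, as were 33 of the 35 calls to begin with. No share of all genes stands beside this count, so it is not read as particular to these genes.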

How the data were processed

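Whole-number counts per Ensembl gene were deposited by the authors for 6 libraries, not normalized. The submitters' processing notes name HISAT2 2.2.0, StringTie and the build hg38, and the library kit is TruSeq, per the labels' protocols. Annotation release, counting options and use of strand: not given in the sources used here. Gene symbols came from a table holding 56105 of the 64252 identifiers (8147 were unmatched, with 2.02% of counts), and coordinates, GC content and transcript lengths from GENCODE release 29.

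Low counts were removed by filterByExpr on the groups (minimum count 10, leaving 18734 genes), and the rest was scaled by TMM and fitted with edgeR 4.0.16 (glmQLFit, glmQLFTest, R 4.3.3) over all 6 libraries with group as the only term. Residual degrees of freedom were 3. Each two-sided p was adjusted by Benjamini-Hochberg across the genes tested, with 0.05 as the threshold, and the pipeline was tested on simulated data. The GC content and length correction took loess fits per library as offsets. Alternatives were RLE scaling, other filters, DESeq2 1.42.0, limma 3.58.1 voom, a fold threshold of 1.5, a replicate block, summed symbols, the corrections, left-out libraries and fits of only the groups compared.

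The members and lists were chosen with earlier results of these data known, so counts over them carry no test. Values of every library were set for the 6 catalytic genes, PSMD14, POMP, the largest called fall and rise of each subcomplex, and the 3 largest called rises and falls between hairpins. BCAT1, MYCN and the other ubiquitin-proteasome genes could be named too. Some genes of those further lists are not reported here, and the lists' counts leave them out. PSMA5, PSMB2, PSMD10, PSME1, PSME3, PSMF1, ADRM1, NRDE2 and the motif with paired GAAA words were given in detail after values were seen. Replicates of a group differed by more than counting noise (chi-square per gene 5.73 to 8.23), which does not show that they came from separate cultures.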

Additional observations from a re-analysis of the deposited data

Results flagged for a closer look

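As counted, PSMD12, a lid subunit of the 19S cap, changed in opposite directions with the 2 hairpins. The difference between them passed the test (log2 0.46, hairpin 2 against hairpin 1). Against control it was −0.28 with hairpin 1 and 0.19 with hairpin 2. The opposite directions did not hold in every fit. After correction for GC content and length, PSMD12 was −0.25 with hairpin 2, and with GC content alone −0.17. Its rise with hairpin 2 also lost its call without control replicate 1 (log2 0.16) and without hairpin 2 replicate 1 (log2 0.12). No exon overlap or named pseudogene was found for PSMD12, and the cause of the difference was not tested.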

How the results depend on the processing

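Counts of called members over both hairpins, hairpin 1, hairpin 2 and the hairpin difference were 35, 30, 33 and 19. Against a fold of 1.5 they were 4, 5, 4 and 1, where 5.55%, 9.44%, 7.46% and 9.47% of all genes passed. With single libraries left out they ranged from 31 to 35, 27 to 31, 29 to 35 and 13 to 19, and a lone library was assumed to vary like the other groups. The replicate block gave 34, 30, 33 and 17; replicate numbers did not pair the samples, with correlations of deviations of 0.00435, −0.0377 and −0.0331. With the GC content and length correction the members lower and higher were 22 and 4, 19 and 7, 20 and 4, and 17 and 10. Merged exon length in its place gave 26 and 2 over both hairpins. This last correction, the fit of protein-coding genes alone and the correction for GC content alone were chosen after seeing the data.

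Reversals were as follows, and the cause was not tested. With the GC content and length correction, also with the replicate block, PSMB6 was 0.02, PSMA7 0.01 and PSME4 −0.14 over both hairpins. PSMB5 was 0.01, PSMB7 0.15 and PSMA7 0.01 with hairpin 1. PSMB6 was 0.18, PSMA7 0.02, PSME4 −0.40, PSMG4 0.40 and PSMD12 −0.25 with hairpin 2. With GC content alone, PSME4 was −0.20 and PSMD12 −0.17 with hairpin 2. With merged exon length, PSME4 was −0.12 over both, PSMB5 0.04 and PSMD14 −0.15 with hairpin 1, and PSMB6 0.15, PSME4 −0.38 and PSMD12 −0.20 with hairpin 2. Without control replicate 1, PSMB8 was 0.97 over both and 1.27 with hairpin 1. Without control replicate 2 it was −1.21 and −0.91. PSMB9 held 1 to 270 counts, and its replicates differed several-fold.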
